A study of Mus musculus with 12 samples.

Results

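The nuclear genes of oxidative phosphorylation are described here as they were measured in round spermatids, the haploid cells that follow meiosis in the testis. They were taken from the deposited expression table by symbol: every gene whose symbol begins with Nduf, Uqcr, Cox4 to Cox8, Atp5 or Sdha to Sdhd, with 7 symbols containing -ps left out. This gave 95 genes of 28643. The rule uses symbols and no expression value, but it was set with earlier results of these data known. By symbol, 46 belonged to complex I, 8 to complex II, 8 to complex III, 17 to complex IV and 16 to complex V, and 81 encode subunits while the other 14 encode assembly or related factors such as Ndufaf1 and Sdhaf4. The cells were sorted by flow cytometry from testes of 8-week-old male mice carrying 1 intact copy of Igf2bp3 (Igf2bp3+/-, the control) or none (Igf2bp3-/-). IGF2BP3 is an RNA-binding protein, and the knockout is a Cas9 frameshift on a C57BL/6 background for which, by the study's methods, males with impaired fertility were selected. Input RNA of each extract (RNA-seq) and mRNA from its heavy polysome fractions (RNC-seq, the mRNA bound to ribosomes with nascent chains) were sequenced. By the study's methods, RNA of both assays was first selected by its poly(A) tail. There were 3 replicates for each genotype and assay and 12 libraries in all. All cells were kept in cycloheximide, which halts elongating ribosomes, while they were sorted.

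Oxidative phosphorylation is the route by which mitochondria make ATP. Complexes I to IV pass electrons from NADH and succinate to oxygen and pump protons across the inner membrane, and complex V, the ATP synthase, uses the proton gradient to make ATP. Most subunits are encoded in the nucleus, translated in the cytosol and imported. Male germ cells exchange some of the general subunits and carriers for paralogs that are used in few other tissues: Cox6b2, Cox7b2 and Cox8c among the small subunits of cytochrome c oxidase (complex IV), Cyct for the electron carrier cytochrome c, and Slc25a31 for the ADP/ATP carrier.

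The coding sequences of the 3 germ-cell subunits and of their general paralogs are shown because the levels reported next depend on telling the members of each pair apart. They were read from the principal GENCODE M21 transcripts (GRCm38) and run 5′ to 3′ on the coding strand. Capitals mark bases that differ from, or have no counterpart in, the paralog when both are aligned.
Cox8c: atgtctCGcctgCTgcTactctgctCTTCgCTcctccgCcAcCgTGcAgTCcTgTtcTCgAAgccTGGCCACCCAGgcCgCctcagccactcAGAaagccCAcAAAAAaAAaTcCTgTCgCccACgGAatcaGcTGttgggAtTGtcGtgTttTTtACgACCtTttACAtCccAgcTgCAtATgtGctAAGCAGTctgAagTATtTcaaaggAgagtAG
Cox8a: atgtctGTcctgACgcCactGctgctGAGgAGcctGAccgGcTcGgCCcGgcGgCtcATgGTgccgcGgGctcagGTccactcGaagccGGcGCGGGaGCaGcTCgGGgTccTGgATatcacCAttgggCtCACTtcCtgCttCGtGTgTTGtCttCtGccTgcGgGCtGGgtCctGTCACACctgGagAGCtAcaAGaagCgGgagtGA
Cox6b2: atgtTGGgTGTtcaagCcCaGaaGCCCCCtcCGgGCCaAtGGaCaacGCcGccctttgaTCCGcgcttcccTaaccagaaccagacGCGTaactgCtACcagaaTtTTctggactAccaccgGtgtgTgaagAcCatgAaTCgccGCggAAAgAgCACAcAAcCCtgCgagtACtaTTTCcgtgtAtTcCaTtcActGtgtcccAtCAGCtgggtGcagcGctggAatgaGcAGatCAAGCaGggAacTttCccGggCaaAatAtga
Cox6b1: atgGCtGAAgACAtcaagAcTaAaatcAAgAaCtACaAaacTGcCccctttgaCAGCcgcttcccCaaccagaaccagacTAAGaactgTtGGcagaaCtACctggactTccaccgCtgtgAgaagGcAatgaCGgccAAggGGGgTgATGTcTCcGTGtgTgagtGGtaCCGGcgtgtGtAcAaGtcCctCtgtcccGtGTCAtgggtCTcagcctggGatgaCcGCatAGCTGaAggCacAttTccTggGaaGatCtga
Cox7b2: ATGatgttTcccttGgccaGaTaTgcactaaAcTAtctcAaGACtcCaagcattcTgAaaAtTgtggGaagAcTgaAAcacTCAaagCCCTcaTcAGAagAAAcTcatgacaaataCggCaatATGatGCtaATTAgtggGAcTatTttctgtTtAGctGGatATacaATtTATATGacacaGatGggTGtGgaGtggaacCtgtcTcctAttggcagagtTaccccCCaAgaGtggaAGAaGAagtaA
Cox7b: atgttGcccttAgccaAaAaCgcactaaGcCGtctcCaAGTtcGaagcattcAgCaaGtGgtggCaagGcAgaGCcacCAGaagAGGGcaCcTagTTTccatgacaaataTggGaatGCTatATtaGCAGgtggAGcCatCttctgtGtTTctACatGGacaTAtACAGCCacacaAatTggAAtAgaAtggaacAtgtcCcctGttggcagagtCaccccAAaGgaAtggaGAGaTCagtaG

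Cox8c (chr12:102899316-102900526, plus strand) and Cox8a (chr19:7215153-7217616, minus strand) were identical at 58.5% of 200 aligned bases. For Cox6b2 (chr7:4751792-4753094, minus strand) and Cox6b1 (chr7:30616861-30626151, minus strand) the value was 64.6% of 257 bases. For Cox7b2 (chr5:71442824-71548205, minus strand) and Cox7b (chrX:106015700-106022450, plus strand) it was 65.4% of 243 bases. The longest stretch of identical bases was 6, 14 and 11 in the 3 pairs, so the coding parts of the members differ throughout their length.

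In each of these pairs the germ-cell paralog carried nearly all of the signal in every library. FPKM, the unit of the table, is a read density per length of transcript, so levels can be compared between genes. Cox8c had the highest mean level of the 95 genes in both assays and both genotypes. It measured 761, 741 and 558 FPKM in the Igf2bp3+/- RNA-seq libraries and 762, 779 and 746 in the Igf2bp3-/- ones. In RNC-seq it measured 1634, 1522 and 1346 FPKM in Igf2bp3+/- and 1909, 1581 and 1791 in Igf2bp3-/-. Its paralog Cox8a stayed between 4.38 and 6.47 FPKM in RNA-seq and between 7.84 and 17.0 in RNC-seq. Cox8c thus held between 99.1% and 99.5% of the summed FPKM of the pair.

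Cox7b2 measured 227, 230 and 156 FPKM in Igf2bp3+/- RNA-seq and 227, 247 and 253 in Igf2bp3-/- RNA-seq. The X-linked Cox7b lay between 0.137 and 0.353 FPKM in RNA-seq and between 0 and 0.821 in RNC-seq, with the 0 in Igf2bp3-/- RNC-seq replicate 2. Near-identical copies of Cox7b elsewhere in the genome held 30.4% of the summed level of Cox7b and its copies, so its own low value is uncertain. Cox6b2 measured 261, 263 and 198 FPKM in Igf2bp3+/- RNA-seq and 297, 288 and 265 in Igf2bp3-/- RNA-seq, against 6.59 to 11.0 for Cox6b1 over those libraries. Cox6b2 held between 95.7% and 96.9% of its pair.

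The remaining pairs did not all favour the special isoform. Ndufa4l2, a paralog of the complex IV subunit Ndufa4 (named for complex I by its symbol), lay between 33.8 and 47.8 FPKM in RNA-seq, against 0.598 to 2.04 for Ndufa4, and held 87.1% to 98.3% of the pair over all libraries. The muscle isoforms Cox6a2 and Cox7a1 and the lung isoform Cox4i2 were at or near 0. The highest value of any library was 0.217 FPKM for Cox6a2, 0.204 for Cox7a1 and 0.0928 for Cox4i2. Cox7a1 was listed at 0 in all RNA-seq libraries and also in RNC-seq of Igf2bp3-/-, and Cox4i2 and Cox6a2 in all RNC-seq libraries. Their general counterparts were abundant, with Igf2bp3+/- RNA-seq means of 258 ± 15.0 for Cox4i1, 99.4 ± 19.8 for Cox6a1 and 279 ± 59.0 FPKM for Cox7a2 (SD, n = 3, as for all means below).

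The balance within the pairs was compared as log2 of the ratio of the paralogs. Of 7 pairs, 3 had both members above 0.1 FPKM in every library and could be compared in 12 contrasts of genotype or assay. The mean log2 ratio of Cox8c to Cox8a was 7.17 ± 0.155 in Igf2bp3+/- and 7.07 ± 0.166 in Igf2bp3-/- RNA-seq. For Cox6b2 to Cox6b1 the values were 4.82 ± 0.195 and 4.77 ± 0.156. The groups overlapped in all 12 contrasts. The exact two-sided permutation test gave p between 0.2 and 1, adjusted p between 0.75 and 1 (n = 3 against 3), where the smallest p the design allows is 0.1.

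**Figure D1:**
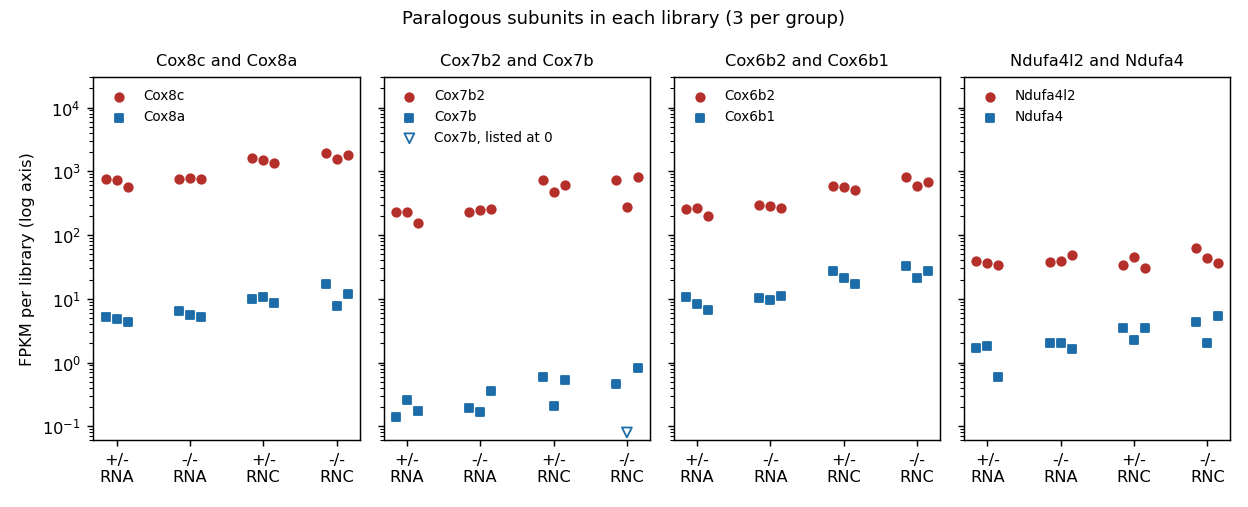
FPKM of 4 pairs of paralogs in each library, on a log axis, with circles for the paralog named first and squares for the other one. The points of Cox8c, Cox7b2, Cox6b2 and Ndufa4l2 lie above those of their counterparts in every library, and the open triangle marks the library in which Cox7b was listed at 0.

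The members were abundant as a set. In Igf2bp3+/- RNA-seq their median level was 46.5 FPKM, which is the 90.3th percentile of the 20494 genes with a mean above 0.1 FPKM. Of the 95 genes, 72 had a mean above 10 FPKM, 21 above 100 and 9 under 1. Together they took 1.62%, 1.595% and 1.30% of the summed FPKM of the Igf2bp3+/- RNA-seq libraries and 1.70%, 1.71% and 1.77% of the Igf2bp3-/- ones. In RNC-seq the share was 2.70%, 2.57% and 2.36% in Igf2bp3+/- and 3.00%, 2.34% and 2.85% in Igf2bp3-/-. Every RNC-seq library therefore gave a larger share to these genes than any RNA-seq library did.

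Levels differed widely among subunits of one complex. In complex I, which takes electrons from NADH, the median was 38.8 FPKM and the highest members were Ndufa12 (166 ± 22.4), Ndufb8 (142 ± 19.5) and Ndufa7 (135 ± 29.0), all accessory subunits. Complex II oxidizes succinate and had the lowest median, 15.5 FPKM. There Sdhb (61.9 ± 2.91), the iron-sulfur subunit, and Sdha (51.2 ± 2.72), the flavoprotein subunit, led, and Sdhaf4 (31.4 ± 4.33), an assembly factor of Sdha, came next. In complex III Uqcrc1, a core subunit, measured 264 ± 8.81, Uqcrq 200.8 ± 52.6 and Uqcr10 90.6 ± 18.8 FPKM. Complex IV had the highest median, 99.4 FPKM. After Cox8c (687 ± 112) came Cox5a (393 ± 37.3) and Cox7a2. In complex V the catalytic subunit Atp5b measured 360 ± 19.3, Atp5j 181 ± 30.1 and Atp5e 127 ± 30.2 FPKM. Near-identical copies held 21.04% of the summed level of Ndufa12 and its copy, and 24 of the 95 genes had such a copy, 11 of them with over 10% of the summed level.

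Among the lowest members were the 3 on the X chromosome, which is silenced in meiosis and remains largely repressed in round spermatids. Their Igf2bp3+/- RNA-seq means were 0.189 ± 0.0595 for Cox7b, 0.926 ± 0.215 for Ndufb11 and 2.71 ± 0.844 FPKM for Ndufa1. The 92 autosomal members had a median of 48.9 FPKM. Over all protein-coding genes the medians were 0.353 FPKM for 707 genes on X and 1.64 for 16177 on autosomes. Ndufb11 and Ndufa1 are essential subunits of complex I with no paralog among the members, and both were measured in every library, at 0.705 to 2.102 and 1.97 to 3.73 FPKM in RNA-seq.

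Among the partners of the complexes, cytochrome c showed the same exchange of paralogs. Cyct measured 63.9, 71.6 and 54.2 FPKM in Igf2bp3+/- RNA-seq, against 1.58, 1.29 and 1.15 for the somatic cytochrome c gene Cycs. The ADP/ATP carrier Slc25a31 measured 19.6, 19.2 and 19.8 FPKM there, and a somatic paralog, Slc25a4, between 0.172 and 0.472. No other somatic paralog of this carrier was set beside it. Cyc1, the cytochrome c1 subunit of complex III whose symbol the rule does not take, stood at 5.44 to 5.56 FPKM, below all 8 complex III members (lowest 18.8). Atpif1, an inhibitor of ATP synthase hydrolysis, was measured at 231, 228 and 154 FPKM.

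Promoters were compared with RefSeq sequences (GRCm38.p6) from 250 bases before to 50 bases after each gene's start, which were matched for 79 of the 95 genes. The word CGCATGCG, the palindromic core bound by NRF1, a known activator of respiratory chain genes, was found in 11 of 79 (13.9%), against 2.07% of 27025 promoters. It was in Atp5g2, Atp5j, Atp5k, Atp5l, Cox6a1, Ndufa8, Ndufa11, Ndufaf4, Ndufaf5, Uqcr11 and Uqcrc1. The GABPA word CCGGAAGT was in 5 (6.33%, against 4.31%) and the CREB and CREM word TGACGTCA in 4 (5.06%, against 2.03%). Both strands were searched, and none of these words contains another. Genes with the NRF1 word had a median level of 24.8 FPKM in Igf2bp3+/- RNA-seq and the 67 tested genes without it 50.2. A match is a description of letters and shows no binding.

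The next comparison asks which mRNAs are over- or under-represented on polysomes. Polysome loading is given as log2 RNC-seq minus log2 RNA-seq within a genotype, on log2(FPKM + 0.1), and is relative to the other mRNAs of the same libraries. In Igf2bp3+/- cells most oxidative phosphorylation mRNAs were higher in RNC-seq. Of 91 members tested, 70 were higher and 2 lower by limma at an adjusted p under 0.05, against 17.3% higher and 26.3% lower of the 19798 genes tested. The median difference was 1.13, and -0.14 over all genes. How all genes divide depends on the scaling: 3431 were higher and 5205 lower here, 4848 and 4109 after median centring, and 2531 and 6799 with FPKM rescaled to the library sum without CT010467.1, the most abundant transcript, with 78 and 63 members higher. Every complex had members among the 70: 38 of 45 in complex I, 5 of 8 in complex II, 6 of 8 in complex III, 13 of 14 in complex IV and 8 of 16 in complex V.

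The largest of these differences fell on small proteins. Sdhaf4 (104 codons) measured 36.1, 30.6 and 27.5 FPKM in RNA-seq and 172, 122 and 136 in RNC-seq, a difference of 2.18 ± 0.161 (log2 ± SE, limma adjusted p = 7.36e-05). Ndufc2 (120 codons), an accessory subunit of complex I, went from 16.1, 16.3 and 11.4 to 65.3, 58.8 and 57.2 FPKM (2.06 ± 0.162, limma adjusted p = 8.64e-05). The assays did not overlap for either gene, and all RNC-seq libraries were the higher ones. Ndufb6 (1.88 ± 0.165), Cox7c (1.85 ± 0.205), Cox7a2 (1.80 ± 0.201) and Ndufa1 (1.74 ± 0.271) followed, with limma adjusted p from 0.000123 to 0.00135. Exons overlap another gene over 12.7% of Sdhaf4 and 39% of Ndufb6, and near-identical copies held 19.5% of the summed level of Cox7c. The germ-cell subunits and their general paralogs measured 1.14 ± 0.152 for Cox8c beside 1.01 ± 0.154 for Cox8a and 1.21 ± 0.143 for Cox6b2 beside 1.34 ± 0.221 for Cox6b1. Cox7b2 measured 1.56 ± 0.200 and Cox7b 0.84 ± 0.387, the latter at under 1 FPKM and not past the limit (limma adjusted p = 0.11). The differences within pairs were not tested in this fit.

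The members that were lower on polysomes encode large subunits. Sdha (664 codons) measured 48.7, 54.1 and 50.8 FPKM in RNA-seq and 32.1, 28.7 and 39.8 in RNC-seq, a difference of -0.62 ± 0.144 (limma adjusted p = 0.00884). Atp5a1 (553 codons), the alpha subunit of the ATP synthase, was lower by a difference of -0.41 ± 0.123 (limma adjusted p = 0.0263), a call that was lost without RNA-seq replicate 1, 2 or 3 or RNC-seq replicate 1. Atp5b (529 codons), which pairs with it in the catalytic head, had -0.24 ± 0.112 and did not pass (limma adjusted p = 0.109). Some small members also lay near 0, among them Ndufa4l2 (87 codons, -0.0073 ± 0.167), whose 6 libraries overlapped between assays, and the c subunit genes Atp5g2 (146 codons, -0.04 ± 0.255) and Atp5g3 (141 codons, 0.19 ± 0.130), and none of these 3 passed (limma adjusted p from 0.273 to 0.976).

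**Figure D2:**
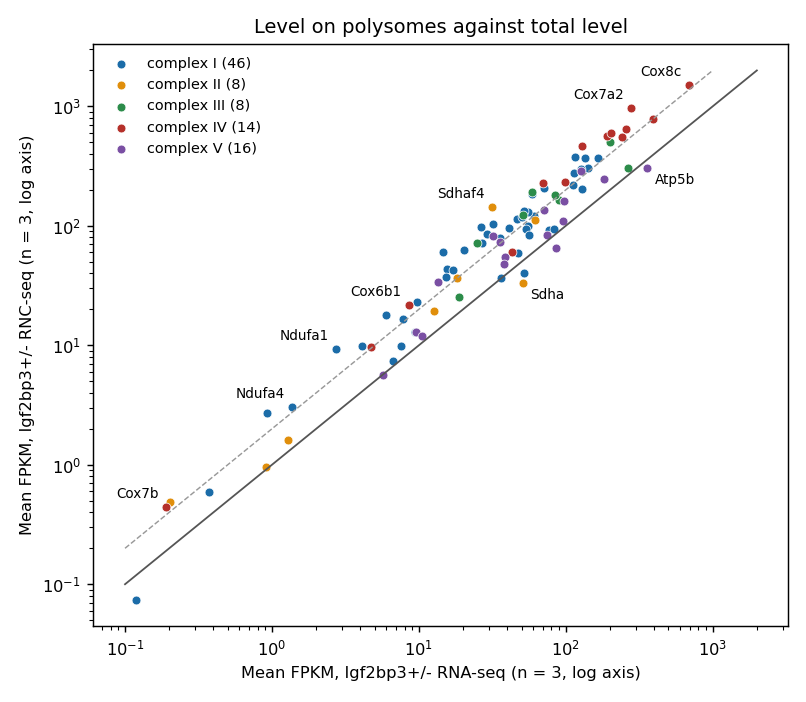
Mean FPKM of the members in Igf2bp3+/- RNA-seq and RNC-seq on log axes, coloured by complex, without the 3 muscle and lung isoforms at or near 0. The solid line marks equal levels and the dashed line a doubling. Cox8c is at the top right, and Sdha and Atp5b lie under the solid line.

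These differences fell as coding length rose. The part of coding length, apart from transcript length, was not tested. The members are short, with a median of 143 codons (52 to 727), against 430 over 16969 protein-coding genes, and 52 of 95 have at most 150 codons. In Igf2bp3+/- the median loading difference was 1.32 for the 23 members of up to 100 codons, 1.23 for the 27 above that and up to 150, and 1.06 for the 18 up to 200. It was 0.91 for the 9 members up to 300 codons, 0.28 for the 12 up to 600 and -0.52 for the 2 above 600 (Sdha and Ndufs1). All protein-coding genes followed the same order, with medians of 0.75, 0.56, 0.37, 0.13, -0.21 and -0.77. Members lay above the median of their own length class in 22 of 23, 21 of 27, 15 of 18, 9 of 9, 10 of 12 and 2 of 2 cases. Across the 91 members, which share libraries and are not independent replicates, the rank correlation of loading with codons was -0.53, and it was -0.53 across 13298 protein-coding genes. Among members over 300 codons Ndufv3 (468 codons), a subunit of the NADH-binding arm of complex I, had the highest value, 1.31 ± 0.190. Ndufv3 has 5 annotated transcripts, of which the principal one gave its codons, while its level is per gene.

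**Figure D3:**
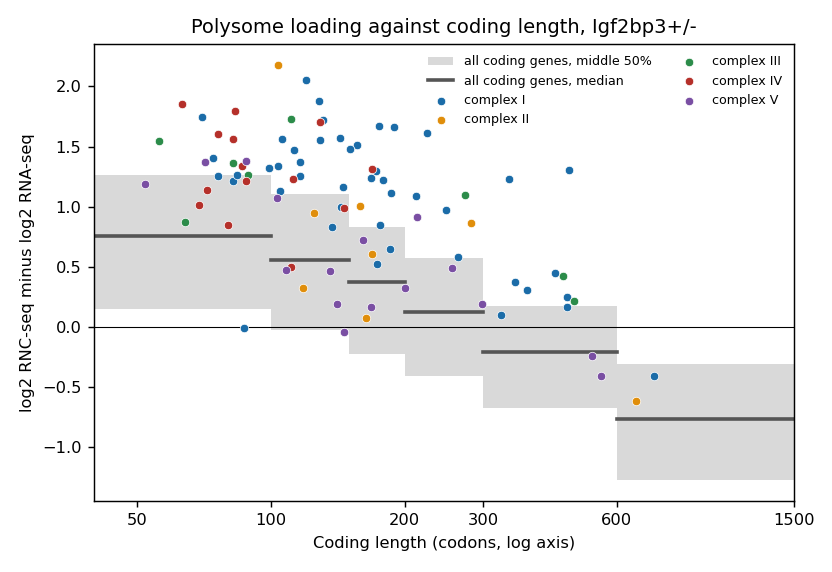
Polysome loading of each member in Igf2bp3+/- cells (log2 RNC-seq minus log2 RNA-seq) against coding length on a log axis, coloured by complex. Grey bands and bars give the middle 50% and the median of all protein-coding genes in 6 length classes, which fall from 0.75 to -0.77, and most members lie above the bars.

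Igf2bp3-/- cells gave the same picture with fewer calls. Of 92 members tested, 53 were higher and 2 lower in RNC-seq by limma, against 9.48% higher and 11% lower of the 19858 genes tested. The median difference was 0.84, and -0.06 over all genes. Among all genes 1882 were higher and 2186 lower, and 1239 and 3503 after rescaling without CT010467.1. The largest were Ndufc2 (1.56 ± 0.349), Ndufa1 (1.54 ± 0.333), Cox7c (1.54 ± 0.297), Sdhaf4 (1.51 ± 0.338), Ndufb2 (1.49 ± 0.352) and Ndufa6 (1.47 ± 0.224), with limma adjusted p from 0.00454 to 0.0187. Those that fell below were Ndufs1 (-0.66 ± 0.152, limma adjusted p = 0.0171), the 727-codon iron-sulfur subunit of complex I, and Sdha (-0.67 ± 0.182, limma adjusted p = 0.0299). Atp5a1 had -0.38 ± 0.169 and did not pass (limma adjusted p = 0.135). The 2 genotypes share no library here, and 52 members were higher in both, which is 74.3% of the Igf2bp3+/- calls and 98.1% of the Igf2bp3-/- calls. The same overlap over all genes is not given, so these shares cannot be read as particular to the members. Sdha was the member lower in both.

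The Igf2bp3-/- count depended on single libraries. It was 26 without RNA-seq replicate 1 and 28 without RNA-seq replicate 2, while the median difference remained at 0.79 and 0.81. Calls over all genes fell as well, from 1882 higher to 463 of 19730 and 502 of 19801 genes. Igf2bp3-/- RNC-seq replicate 2 was the lowest RNC-seq library for 47 of 91 members, and without it 67 members and 3124 of 19942 genes were higher. Without any 1 of the 3 RNA-seq libraries neither Sdha nor Ndufs1 passed, with differences of -0.72 to -0.62 and -0.74 to -0.61. Among the largest calls, those of Ndufc2, Sdhaf4 and Ndufb2 were each lost in 4 of the 6 fits with 1 library left out and that of Ndufa1 in 3. For Ndufc2 the 3 RNC-seq libraries measured 78.4, 27.1 and 66.4 FPKM, and for Sdhaf4 137, 59.0 and 159.

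In RNA-seq the members lay slightly higher in Igf2bp3-/- than in Igf2bp3+/- cells, but no single gene passed the test. Of 92 members tested, 0 had a limma adjusted p under 0.05, against 0.256% of the 20352 genes tested in either direction. With no adjustment for multiple testing, at p under 0.05, 39 members were higher and none lower (0), where 10.4% of all genes tested were higher and 5.32% lower. The 39 became 20 in 1 fit over all 12 libraries, 25 after rescaling without CT010467.1, 24 without Igf2bp3-/- replicate 2 and 26 without Igf2bp3-/- replicate 3, with 0 lower in each. The estimate was above 0 for 89 of 92 members, with a median of 0.27, and 0.05 over all genes. Shorter protein-coding genes also lay higher than long ones. In the length classes used for loading, shortest first, the medians of all protein-coding genes were 0.17, 0.20, 0.19, 0.14, 0.07 and -0.06. Those of the members were 0.19, 0.29, 0.43, 0.36, 0.29 and 0.14, and the part of length was not tested. In 44 members all Igf2bp3-/- libraries exceeded all Igf2bp3+/- libraries, which was so for 14.1% of all genes tested. These are bulk samples, in which fewer cells of a type and less RNA per cell cannot be told apart.

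Complex I led by size, with a median of 0.34 and 24 of 46 members higher at an unadjusted p under 0.05. The medians were 0.30 in complex III, 0.27 in complex IV, 0.20 in complex V and 0.16 in complex II. Ndufb5, an accessory subunit of complex I, measured 61.2, 62.5 and 51.8 FPKM in Igf2bp3+/- and 81.1, 84.3 and 90.8 in Igf2bp3-/- (0.55 ± 0.10, limma adjusted p = 0.103, and 0.0372 with each library centred on its median). Ndufs7, an iron-sulfur core subunit, measured 21.3, 20.9 and 18.8 against 26.5, 29.6 and 30.1 FPKM (0.50 ± 0.0985, limma adjusted p = 0.124). Ndufv2, an iron-sulfur subunit of the NADH-binding arm, measured 123, 116 and 95.7 against 147, 159 and 181 FPKM (0.54 ± 0.119, limma adjusted p = 0.152). None of these 3 genes overlapped between genotypes, and exons of Ndufb5 overlap another gene over 12.3% of their length. The 3 members with an estimate under 0 were Ndufa2 (-0.08 ± 0.178), Atp5k (-0.10 ± 0.271) and Ndufaf4 (-0.08 ± 0.322), with limma adjusted p from 0.855 to 0.923. Cox8c differed by 0.16 ± 0.123 (limma adjusted p = 0.544).

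A single library carried part of the shift. Igf2bp3+/- RNA-seq replicate 3 was the lowest of the 6 RNA-seq libraries for 76 of 92 members, with a median deviation of -0.41 (log2) from each gene's mean, and -0.09 over all genes. Cox7c, a small complex IV subunit, measured 145, 151.2 and 93.5 FPKM in the Igf2bp3+/- replicates, and Ndufa5 65.8, 62.2 and 39.3. Without that library the median of the members was 0.17 with 73 estimates above 0, and 30 members passed an unadjusted p of 0.05 as higher, beside 2 as lower. The transcript annotated as CT010467.1 took 13.3% of the summed FPKM in that library, 5.68% in Igf2bp3-/- replicate 3, where 60 of 92 members were highest, and 8.10% to 9.38% in the other 4. With FPKM rescaled to each library's sum without CT010467.1, an alternative chosen after seeing the data, the median of the members was 0.15, and -0.07 over all genes, of which 33 passed as higher and 20 as lower in place of 40 and 12. The part of this transcript in the difference was otherwise not tested.

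Markers of other cells and the targeted gene were read in the same libraries. The 5 round spermatid markers were present in all libraries, with summed levels of 515 to 618 FPKM in Igf2bp3+/- and 635 to 767 in Igf2bp3-/- RNA-seq, and 5 of 5 estimates higher in both assays. The 5 spermatocyte markers summed to 80.3 to 103 FPKM in Igf2bp3+/- and 94.5 to 120 in Igf2bp3-/- RNA-seq, with 5 of 5 estimates higher in RNA-seq and 1 of 5 in RNC-seq. The 6 elongating spermatid markers summed to 8421 to 10867 and 9444 to 9561 FPKM in RNA-seq, with 1 of 6 estimates higher there and 5 of 6 in RNC-seq, and 0 genes of these 3 lists passed in either assay. The 7 Leydig cell markers summed to 14.6 to 21.5 FPKM in Igf2bp3+/- and 46.4 to 52.9 in Igf2bp3-/- RNA-seq, most of it Insl3, and to 6.23 to 13.9 and 50.4 to 100 in RNC-seq, where Lhcgr and Hsd17b3 reached at most 0.507 FPKM. Of 6 tested in each assay, 6 had higher estimates in both, and 3 passed in RNA-seq and 1 in RNC-seq. Blood and macrophage markers summed to 0.893 to 1.30 and 2.56 to 2.72 FPKM in RNA-seq, with Cd74 the largest part in Igf2bp3-/-. Cd74 measured 0.276 to 0.519 FPKM in Igf2bp3+/- and 1.63 to 1.83 in Igf2bp3-/- RNA-seq, and Ptprc, Adgre1 and Csf1r overlapped between genotypes there. Of these markers, 4 of 4 tested had higher estimates in RNA-seq and 1 passed. In RNC-seq 2 of 2 tested had higher estimates and 0 passed. Of the tested Sertoli, peritubular and spermatogonia markers, 2 of 4, 1 of 4 and 1 of 3 had higher estimates in RNA-seq. In RNC-seq it was 2 of 3, 3 of 3 and 1 of 3, and 0 of them passed in either assay. The part of any of these cells in the members' differences was not tested. Igf2bp3 itself measured 38.2, 38.6 and 33.4 FPKM in Igf2bp3+/- and 31.7, 32.5 and 31.4 in Igf2bp3-/- RNA-seq, and the genotypes overlapped in RNC-seq. A frameshift need not lower the RNA, so these values do not check the genotype labels.

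**Figure D4:**
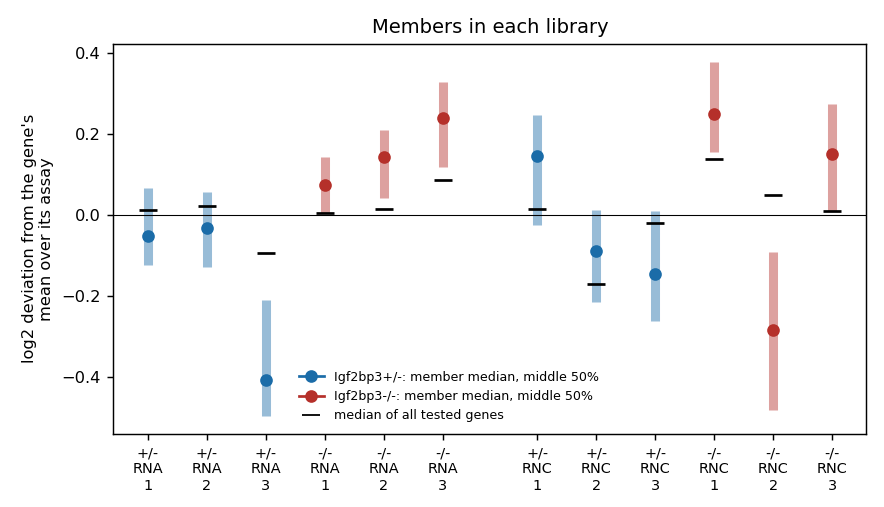
Deviation of the members from their own mean over the 6 libraries of an assay (log2), as the median and the middle 50% for each library, with a black dash for the median of all tested genes. Igf2bp3+/- RNA-seq replicate 3 lies at -0.41 and Igf2bp3-/- RNC-seq replicate 2 at -0.28, below the other libraries of their assays.

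In RNC-seq the median difference between genotypes was smaller, and it depended on the scaling and on single libraries. Of 91 members tested in RNC-seq, 0 had a limma adjusted p under 0.05, against 0.115% of the 19051 genes tested, and without adjustment 1 member passed p under 0.05 as higher and 0 as lower, where 5.36% of all genes tested were higher and 1.12% lower. The median difference was 0.07 and that of all genes 0.13. With each library centred on its median it was -0.05, and -0.08 after quantile normalization, so no direction can be given. Atp5g3, which encodes the c subunit of the ATP synthase, measured 11.3, 12.3 and 12.2 FPKM in Igf2bp3+/- and 21.8, 14.9 and 15.0 in Igf2bp3-/- (0.50 ± 0.224, limma adjusted p = 0.767). Atp5g2, a further gene for the same subunit, had 0.58 ± 0.265 and Atp5b 0.45 ± 0.207, both at a limma adjusted p of 0.767. Near-identical copies held 17.8% of the summed level of Atp5g2. At the other end were Ndufa3 (-0.36 ± 0.263), Sdhd (-0.33 ± 0.256) and Sdhaf4 (-0.38 ± 0.326), with limma adjusted p from 0.831 to 0.852. Without Igf2bp3-/- replicate 2 the median was 0.22 and 7 members were higher at an unadjusted p under 0.05.

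Translational efficiency (TE), the ratio of RNC-seq to RNA-seq, was then compared between genotypes as the interaction of genotype and assay. This comparison uses the same libraries as those above. Of 91 members, 0 had a limma adjusted p under 0.05, against 0.00543% of the 18414 genes tested. Without adjustment, 1 member passed as higher and 1 as lower at that limit, where 5.54% of all genes tested were higher and 1.58% lower. This count depended on the scaling and the libraries: it was 0 higher and 18 lower after median centring (median -0.37), 1 and 9 after quantile normalization, 1 and 5 after rescaling without CT010467.1, 0 and 11 without Igf2bp3-/- replicate 1 and 0 and 8 without Igf2bp3+/- replicate 2. The median difference was -0.24 with 77 estimates under 0, beside 0.06 over all genes. Shorter protein-coding genes also lay lower than long ones. In the length classes used for loading, shortest first, the medians of all protein-coding genes were -0.12, -0.10, -0.10, -0.03, 0.07 and 0.26. Those of the members were -0.20, -0.17, -0.33, -0.26, -0.24 and -0.15, and the part of length was not tested. By complex the medians were -0.27 in I, -0.25 in II, -0.28 in III, -0.20 in IV and -0.07 in V. The fewer loading calls in Igf2bp3-/- cells thus came without a member whose loading differed between genotypes past the limit.

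The member with the smallest p was Ndufb8, an accessory subunit of complex I. It measured 159, 145 and 121 FPKM in Igf2bp3+/- RNA-seq and 324, 318 and 272 in RNC-seq. In Igf2bp3-/- the values were 180, 213 and 242 and then 377, 266 and 311 FPKM. The interaction was -0.52 ± 0.236 (limma adjusted p = 0.692). Ndufv2 (-0.47 ± 0.238) and Ndufb9 (-0.43 ± 0.231) came next below 0, and Atp5g3 (0.49 ± 0.228), Atp5g2 (0.52 ± 0.314) and Sdhaf1 (0.33 ± 0.289) above it, with limma adjusted p from 0.700 to 0.792. The median of the members was -0.08 without Igf2bp3-/- replicate 2, which includes the RNC-seq library in which the members were low. It was -0.16 without Igf2bp3+/- replicate 3 and reached -0.36 without Igf2bp3-/- replicate 1. Each such fit left out the RNA-seq and the RNC-seq library of that number, which need not come from the same extract.

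As a ratio of group means, given without a test, median TE was 2.23 for the members in Igf2bp3+/- and 1.87 in Igf2bp3-/-, beside 0.937 and 0.993 over all genes. Of the 91 members, 0 had a TE over 1.5-fold higher in Igf2bp3-/-, where 18.6% of 18356 genes did, and 1 was over 1.5-fold lower, where 8.45% did. That member was Sdhaf3, a complex II assembly factor with a TE of 2.43 in Igf2bp3+/- and 1.33 in Igf2bp3-/- but a mean of only 0.203 FPKM in Igf2bp3+/- RNA-seq, and it was named after its value was seen.

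**Figure D5:**
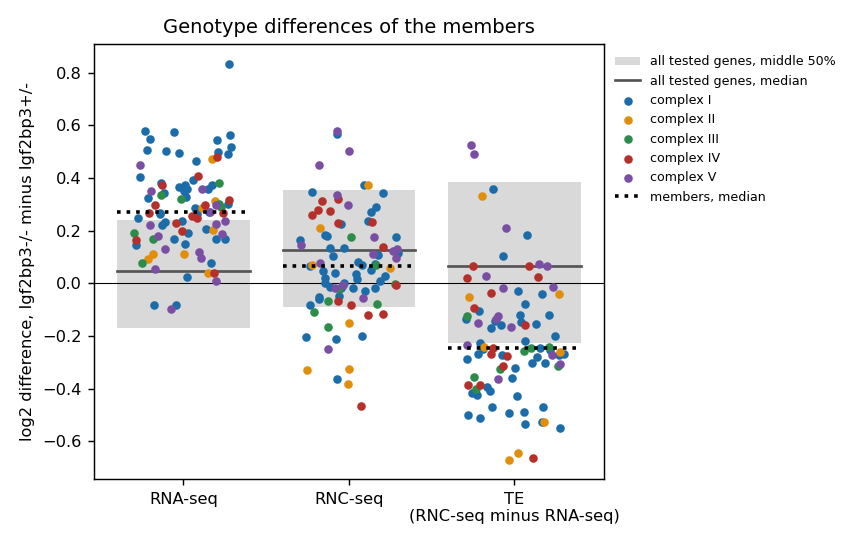
Difference between Igf2bp3-/- and Igf2bp3+/- (log2) of each member in RNA-seq, RNC-seq and TE, coloured by complex, with the middle 50% and the median of all tested genes in grey and the median of the members as a dotted line. The dotted line lies at 0.27, 0.07 and -0.24, and no point passed the limit.

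Other genes of the pathway moved less uniformly. Of 34 assembly factors outside the symbol rule, 32 were tested, and 15 were higher and 2 lower on polysomes in Igf2bp3+/- cells (median 0.42). The copper chaperone Cox17 (1.41 ± 0.204) and the small complex IV factors Cox14 (1.90 ± 0.224) and Coa3 (1.38 ± 0.144) were among the higher ones, and Coa5 (-1.44 ± 0.166) and Atpaf1 (-1.0 ± 0.230) were the lower ones, with limma adjusted p from 0.000228 to 0.00834. Of 14 carriers, 3 were higher (Cyct, 1.46 ± 0.194, Slc25a31, 0.58 ± 0.157, and Atpif1, 1.18 ± 0.182) and 2 lower (Vdac2, -0.43 ± 0.103, and Etfb, -3.46 ± 0.280), with a median of -0.07. Of 10 tested genes of coenzyme Q synthesis 2 were higher and 3 lower, and of 10 transcriptional regulators 1 was higher (Tfam, 0.66 ± 0.185) and 2 lower (Pprc1, -1.54 ± 0.483, and Yy1, -1.03 ± 0.334). In Igf2bp3-/- cells the counts were 7 higher and 1 lower for assembly factors, 2 and 1 for carriers, 0 and 2 for coenzyme Q synthesis and 0 and 1 for regulators.

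Ribosomal protein genes, also short and abundant, are given for comparison. Of 90 tested cytosolic ribosomal protein genes 80 were higher on polysomes in Igf2bp3+/- cells (median 1.20), and of 78 mitochondrial ones 49 were higher and 3 lower (median 0.66). In Igf2bp3-/- cells 53 and 24 of them were higher and 0 lower. Over all genes tested, 17.3% were higher in Igf2bp3+/- and 9.48% in Igf2bp3-/- cells. Their TE differences between genotypes had medians of -0.37 and -0.19, with 0 genes past the limit in each. In RNA-seq the medians of these lists and of the carriers, assembly factors, coenzyme Q genes and regulators lay between 0.17 and 0.34, and 1 gene among them, a cytosolic ribosomal protein gene, passed the limit. In RNC-seq and in TE 0 genes of these lists passed. The difference between these lists and the members was not tested.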

How the data were processed

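RNA-seq and RNC-seq of sorted round spermatids gave 12 libraries. The authors deposited 1 table of FPKM per gene symbol. Per the submitters' processing notes and the methods, bases were called with CASAVA 1.8, Trim Galore 0.6.6 trimmed the reads, HISAT2 placed them on GRCm38, and StringTie 2.1.7 gave the levels. The annotation release and the use of strand are not given in the sources used here, and the labels and methods name different library kits and instruments. FPKM is relative to each library's own content, so a few abundant transcripts shift all others. No counts were used, so depth is unknown. Relative depth, read from the lowest values, was 0.366 to 1 of the deepest library.

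Of the symbols, 25 turned into dates were left out. Values were analysed as log2(FPKM + 0.1), a scale that understates changes of low genes, with limma 3.58.1 (R 4.3.3, trend, two-sided) for genes with a mean above 0.1 FPKM in the libraries of a fit (in each assay for TE). P-values were adjusted over all genes tested (Benjamini-Hochberg, limit 0.05). Groups came from the labels, where columns named WT are Igf2bp3+/-. By the methods cells were isolated from each mouse, and the labels do not tie a library to an animal, so p-values measure only the spread between these samples. The RNA-seq, Igf2bp3+/- loading and TE fits were checked on simulated data, and the RNC-seq and Igf2bp3-/- loading fits were not. Alternatives were other pseudocounts, filters, scalings, weights, single libraries left out and a replicate block. Positions, codons and coding sequences are from GENCODE M21, which held all 95 genes. A near-identical copy had at least 95% identity over 50% of the coding sequence (BLAST 2.17.0), and where strand was not used, overlapping genes cannot be told apart.

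The members and gene lists were chosen with earlier results of these data known. Genes named are the paralog pairs, the 3 highest members of each complex, the partners, members at 0 throughout a group, and per fit the 6 largest calls in each direction or, with fewer than 3 calls, the 3 with the smallest p. Genes outside this rule were named after their values were seen, among them Ndufv3, Ndufa5, Sdhaf3 and some assembly factors, carriers and regulators.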

Additional observations from a re-analysis of the deposited data

How the results depend on the processing

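No read counts stand behind these values, and FPKM does not set the absolute amount of mRNA on polysomes. For RNA-seq, the count of members called higher was 1 in place of 0 after median centring of the libraries and also with an unadjusted p under 0.05 joined to a change over 1.5-fold, and it was 0 under all other alternatives. The sign of the RNA-seq and TE medians held under every alternative. In Igf2bp3+/- loading, the count called lower was 1 with centring and with the 1.5-fold rule and 4 with FPKM rescaled to the library sum without CT010467.1, and the median was 1.31 with centring and 0.90 with that rescaling. With 1 library left out, the Igf2bp3+/- counts ranged from 63 to 69 higher and from 1 to 3 lower, and the Igf2bp3-/- counts from 26 to 67 higher and from 0 to 2 lower. The number of members with TE over 1.5-fold lower was 0 at a limit of 2-fold and 3 with geometric means. With 1 library left out, the RNA-seq difference ranged from -0.31 to 0.046 for Ndufa2, from -0.43 to 0.10 for Atp5k and from -0.24 to 0.19 for Ndufaf4, and the RNC-seq difference of Sdhaf4 from -0.66 to 0.057. Over all genes, RNA-seq calls went from 40 higher and 12 lower to 23 and 8 without a filter and to 5 and 6 without Igf2bp3-/- replicate 3, and RNC-seq calls from 15 and 7 to 38 and 10 in 1 fit over all libraries, 2 and 0 without a filter and 0 and 0 without Igf2bp3-/- replicate 1. The cause of these changes was not tested.

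Same-numbered libraries of the 2 assays correlated between -0.06 and 0.09 in their deviations from the group means, so the values do not show that the numbers pair the libraries. By the methods, input and polysome RNA came from one extract, but the labels do not say that a shared number marks it. Fitted with the replicate block, 67 members were higher and 2 lower in Igf2bp3+/- loading and 53 and 2 in Igf2bp3-/- loading, and 0 passed in RNA-seq, RNC-seq and TE. Over all genes the RNA-seq calls with the block were 4 higher and 0 lower.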
